A study of Mus musculus with 4 samples.

Results

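Genes of DNA replication, DNA repair and the cyclins were followed at their translation initiation sites in primary cultured cortical neurons of mice. A gene was taken when its symbol began with Mcm, Pola, Polb, Pold, Pole, Rfc, Orc, Rad, Msh or Parp and then a number. So was one that began with Ccn and then a letter and a number, or with Xrcc, Ercc, Fanc or Pds5. Rpa1 to Rpa3, Pcna, Lig1, Lig3 and Lig4 were taken by full symbol. This gave 33 genes, each with 1 transcript, of 6352 transcripts in the table. No gene of the Fanc family was among them. The choice was by name, and so it took in Mcm3ap, a nuclear mRNA export factor, the T-type cyclins Ccnt1 and Ccnt2, which pair with Cdk9 in transcription elongation, and Parp6, a mono-ADP-ribosyltransferase.

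There were 4 libraries of ribosome-protected fragments, with 1 library for each condition and so no replicates. All neurons were given harringtonine at 5 µg/ml for 3 min, which holds ribosomes at start codons. KO SC came from Ltn1 KO neurons titled Ttc3 RNAi, KO TTC from Ltn1 KO neurons titled control (scrambled) RNAi, WT SC from WT neurons titled Ttc3 RNAi, and WT TTC from WT neurons titled control RNAi. Ltn1 encodes the E3 ligase of ribosome-associated quality control, and the sources used here do not give the deleted part of the gene or the age of the mice. The code letters read as the opposite of the titles, so libraries are called by genotype and code as labelled. An exchange of the RNAi labels would turn every difference between codes round. In the paper's ranked list of Ltn1 KO minus WT differences, which names no RNAi, Xrcc4 and Msh6 are lower in Ltn1 KO. Both genes had reads in WT SC only, so that list follows the SC pair. If it is of neurons without Ttc3 RNAi, SC stands for scramble, as its letters read, and the titles are exchanged. Which holds was not tested. Ltn1 itself had 37 reads with SC and 0 with TTC in Ltn1 KO, against 10 with SC and 2 with TTC in WT, so KO SC had the most reads at this site. Because the deleted part is not known, these reads cannot show whether the label of KO SC holds. Ttc3 had 2 reads for KO SC, 0 for KO TTC, 3 for WT SC and 0 for WT TTC. Because of KO SC, each comparison of Ltn1 KO with WT is given for the SC pair, which holds it, and for the TTC pair, which does not.

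In dividing cells, the origin recognition complex marks the sites where replication starts, the MCM helicase opens the DNA, and the sliding clamp PCNA, loaded by replication factor C, holds the polymerases on the strand. D-type cyclins with Cdk4 or Cdk6 and E-type cyclins with Cdk2 inactivate the retinoblastoma protein and so release E2F factors, which drive transcription of many replication genes. Cortical neurons have left the cell cycle, but they keep excision repair, strand-break repair and end joining, and cohesin shapes their chromosomes.

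The sequences below are shown because E2F sites are the known switch of replication genes, and they mark where such letters stand in promoters of these genes. RefSeq promoters of GRCm38.p6, from 250 bases before to 50 after a gene's start, were matched by symbol for 26 of the 33 genes (30 promoters). The E2F motif was searched on both strands as TTTCCCGC, TTTGGCGC or TTTCGCGC. It was found in 5 of the 30 promoters (16.7%), against 198 of 6460 promoters of the genes in the table (3.07%) and 606 of all 32851 promoters (1.84%). The genes were Mcm6, Msh6, Orc3, Pds5a and Xrcc6. The windows of 30 bases run 5′ to 3′ along the gene's strand, with the motif or its reverse complement in capitals. In the first Mcm6 window, the capitals overlap the reverse complement of TTTCGCGC.
Mcm6, chr1:128359797-128359826, minus strand: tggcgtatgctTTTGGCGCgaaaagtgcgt
Mcm6, chr1:128359734-128359763, minus strand: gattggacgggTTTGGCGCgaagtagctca
Pds5a, chr5:65698324-65698353, minus strand: ggcaggtcttgGCGCCAAAcgggtggcggc
Xrcc6, chr15:82016312-82016341, plus strand: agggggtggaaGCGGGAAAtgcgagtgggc
Orc3, chr4:34614965-34614994, minus strand: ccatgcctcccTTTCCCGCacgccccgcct
These motifs are matches of letters. The libraries hold footprints and no measure of transcription, so nothing follows from them about E2F in these neurons.

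The authors' table gives RPM (reads scaled to one fixed library total). Library totals were inferred by taking the smallest value above 0 in a library as 1 read, and every value was then a whole number of reads. The inferred totals ran from 1460425 reads in WT TTC to 3655827 in KO TTC, and 1 read was worth 0.274 to 0.685 RPM. The 33 genes held 499 reads for KO SC, 594 for KO TTC, 334 for WT SC and 197 for WT TTC. Of the 33, 2 had no reads in any library, 25 had at least 20 reads over the 4 libraries and 10 had a mean of at least 5 RPM. A floor of 3 reads, set in place of a count of 0 and close to its one-sided 95% limit, was 1.12 RPM for KO SC, 0.821 RPM for KO TTC, 1.43 RPM for WT SC and 2.05 RPM for WT TTC. The two-sided exact Poisson 95% interval of a count of 0 reaches higher, to 1.38 RPM for KO SC, 1.01 RPM for KO TTC, 1.76 RPM for WT SC and 2.53 RPM for WT TTC, and against these limits each fold given as "at least" would be smaller. Such a fold sets the observed RPM of the other library against the floor. It leaves out the counting error of that library and is not a lower confidence limit. Intervals and floors cover counting error only. The labelled cell type was checked with 8 neuron markers, which summed to 2201 RPM for KO SC, 2064 RPM for KO TTC, 1891 RPM for WT SC and 1877 RPM for WT TTC. Astrocyte markers (6 of 7 in the table) summed to 112, 171, 192 and 227 RPM in the same order, oligodendrocyte lineage markers (7 of 10) to 11.97, 39.9, 38.6 and 67.8 RPM, and progenitor and proliferation markers (4 of 9) to 23.9, 43.2, 38.6 and 58.2 RPM. None of 6 microglia markers was in the table. Mbp, Aqp4 and Cspg4 were at 0 reads in KO SC, Aqp4 also in WT SC, and Top2a was at 0 in both Ltn1 KO libraries. The sums of glial and progenitor markers were thus lower in the Ltn1 KO library of each pair, and lowest in KO SC. Single markers did not all follow their sums. In the SC pair 1 astrocyte and 1 oligodendrocyte lineage marker were higher in KO SC. In the TTC pair 1 progenitor, 1 astrocyte and 2 oligodendrocyte lineage markers were higher in KO TTC. The part of these cell types in the results that follow was not tested, and fewer cells of a type cannot be told apart from fewer footprints per cell.

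**Figure D1:**
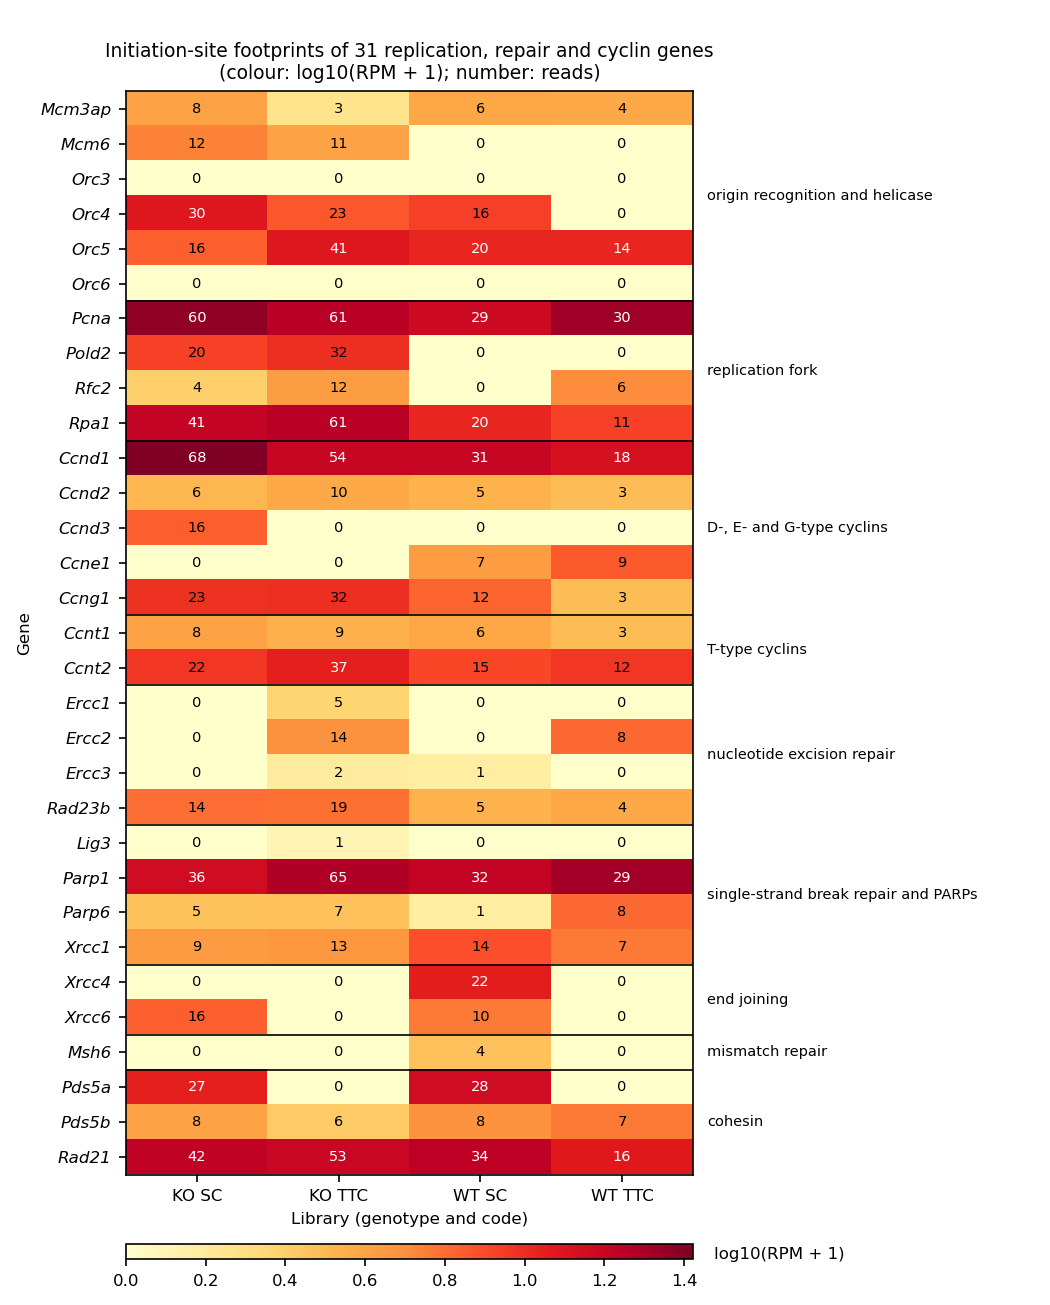
Footprints at the initiation sites of 31 of the 33 genes (rows, grouped by role) in the 4 libraries (columns); colour gives log10(RPM + 1) and the number in each cell the reads. Pcna, Ccnd1, Parp1, Rad21 and Rpa1 had reads in every library, while genes such as Pold2, Xrcc4 and Pds5a had at least 20 reads in some libraries and 0 in others.

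The question of the Ltn1 KO comparisons was whether footprints at initiation sites differ without Ltn1. In KO SC, Pold2, Mcm6 and Ccnd3 rose and genes such as Xrcc4 and Ccne1 fell against WT SC. In KO TTC, Pold2 and Orc4 rose and Ccne1 fell against WT TTC. A gene was called at an adjusted p of 0.05 by an exact binomial test (two-sided, conditional on both library totals), with Benjamini-Hochberg adjustment over all transcripts that had reads in the pair, and such a call describes 2 libraries, not 2 genotypes. In the SC pair 6 of 28 genes with reads were called (21.4%), 3 in each direction, against 7.38% of all 5355 transcripts (2.63% higher and 4.74% lower). In the TTC pair 3 of 26 were called (11.5%), 2 higher and 1 lower, against 7.54% of 5448 (3.14% higher and 4.41% lower). The count in the TTC pair lies near its background. None of these calls was made by edgeR's quasi-likelihood test over the 4 libraries, with genotype and code as additive terms. It could be fitted for 25 of the genes, not for Ccnd3 or Xrcc4, and called 0 for either term. With 1 residual degree of freedom it also called 0 of all 4467 transcripts tested, so it cannot decide for or against a call.

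At the replication fork, Pold2, the accessory subunit of DNA polymerase delta, had reads in the Ltn1 KO libraries alone. It had 20 reads (7.48 RPM) with SC and 32 reads (8.75 RPM) with TTC in Ltn1 KO, against 0 reads with SC and 0 with TTC in WT. Both libraries labelled Ltn1 KO therefore lay above both WT libraries, at least 5.23-fold higher than the floor in the SC pair (adjusted p = 0.000623, exact binomial test) and at least 4.26-fold in the TTC pair (adjusted p = 0.00185, same exact test). In edgeR's additive model it did not pass for genotype (adjusted p = 0.902). Rpa1, the large subunit of the single-strand DNA-binding protein RPA, had 15.3 RPM (41 reads) with SC and 16.7 RPM (61 reads) with TTC in Ltn1 KO, against 9.54 RPM (20 reads) with SC and 7.53 RPM (11 reads) with TTC in WT. Its levels did not overlap between genotypes either, but neither pair passed, with a ratio of 1.61 (95% interval 0.920 to 2.90) for the SC pair and 2.22 (1.16 to 4.67) for the TTC pair (adjusted p = 0.357 and 0.110, exact binomial test). Pcna itself had 22.4 RPM (60 reads) with SC and 16.7 RPM (61 reads) with TTC in Ltn1 KO, against 13.8 RPM (29 reads) with SC and 20.5 RPM (30 reads) with TTC in WT. The ratio was 1.62 (1.03 to 2.62) for the SC pair and 0.812 (0.517 to 1.30) for the TTC pair, so the pairs leaned opposite ways, and neither passed (adjusted p = 0.205 and 0.704, exact binomial test). Rfc2, a subunit of the clamp loader, had 4 reads with SC and 12 with TTC in Ltn1 KO, against 0 with SC and 6 with TTC in WT, and passed in neither pair.

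Among the genes of origin recognition and the helicase, Mcm6, a subunit of the replicative helicase, had 12 reads (4.49 RPM) with SC and 11 reads (3.01 RPM) with TTC in Ltn1 KO, against 0 with SC and 0 with TTC in WT. It passed in the SC pair, at least 3.14-fold higher than the floor (adjusted p = 0.0300, exact binomial test), and not in the TTC pair (adjusted p = 0.231, same exact test), where the floor of WT TTC was highest. Nor did it pass for genotype in edgeR's additive model (adjusted p = 0.902). Orc4, a subunit of the origin recognition complex, had 30 reads (11.2 RPM) with SC and 23 reads (6.29 RPM) with TTC in Ltn1 KO, against 16 reads (7.63 RPM) with SC and 0 with TTC in WT. The library that stands apart is WT TTC: KO TTC was at least 3.06-fold higher than its floor (adjusted p = 0.0159, exact binomial test), whereas in the SC pair the ratio was 1.47 (0.776 to 2.89). Orc5, of the same complex, had 5.99 RPM (16 reads) with SC and 11.2 RPM (41 reads) with TTC in Ltn1 KO, against 9.54 RPM (20 reads) with SC and 9.59 RPM (14 reads) with TTC in WT. Its values overlapped between genotypes, with ratios of 0.627 (0.304 to 1.27) for the SC pair and 1.17 (0.625 to 2.32) for the TTC pair. Orc3 and Orc6 had 0 reads in every library. Mcm3ap had 8 reads for KO SC, 3 for KO TTC, 6 for WT SC and 4 for WT TTC.

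Of the cyclins, Ccnd3 rose and Ccne1 fell in the SC pair, and Ccne1 fell in the TTC pair. Ccne1, the E-type cyclin that starts S phase with Cdk2, had 0 reads with SC and 0 with TTC in Ltn1 KO, against 7 reads (3.34 RPM) with SC and 9 reads (6.16 RPM) with TTC in WT. It was at least 2.98-fold lower in the SC pair (adjusted p = 0.0455, exact binomial test) and at least 7.51-fold lower in the TTC pair (adjusted p = 0.000753, same exact test), with the floor of the Ltn1 KO library in place of its 0. The call in the SC pair rests on 7 reads and was lost after rescaling the libraries to the same sum (adjusted p = 0.0547) or with median-of-ratios factors (adjusted p = 0.0580, both exact binomial test), and Ccne1 did not pass for genotype in edgeR's additive model (adjusted p = 0.902). Ccnd3, a D-type cyclin, had 16 reads (5.99 RPM) with SC and 0 with TTC in Ltn1 KO, WT SC and WT TTC. Its call in the SC pair, at least 4.18-fold higher (adjusted p = 0.00452, exact binomial test), comes from KO SC alone, the library with the most Ltn1 reads. Ccnd1, the D-type cyclin with most footprints, had 25.4 RPM (68 reads) with SC and 14.8 RPM (54 reads) with TTC in Ltn1 KO, against 14.8 RPM (31 reads) with SC and 12.3 RPM (18 reads) with TTC in WT. KO SC was the high library and the others lay close together, with a ratio of 1.72 (1.11 to 2.72) for the SC pair and 1.20 (0.692 to 2.17) for the TTC pair (adjusted p = 0.105 and 0.898, exact binomial test). With median-of-ratios factors the SC pair passed (adjusted p = 0.0466, same exact test). Ccnd2 stayed between 2.05 and 2.74 RPM in the 4 libraries, on 3 to 10 reads. Ccng1, a cyclin induced by p53, had 8.60 RPM (23 reads) with SC and 8.75 RPM (32 reads) with TTC in Ltn1 KO, against 5.72 RPM (12 reads) with SC and 2.05 RPM (3 reads) with TTC in WT. Both Ltn1 KO values were above both WT values, and neither pair passed (adjusted p = 0.680 and 0.0806, exact binomial test). Ccnt2 was also higher in both, with 8.23 RPM (22 reads) with SC and 10.1 RPM (37 reads) with TTC in Ltn1 KO, against 7.16 RPM (15 reads) with SC and 8.22 RPM (12 reads) with TTC in WT, differences far inside their intervals (ratio 1.15, 0.570 to 2.38, in the SC pair and 1.23, 0.628 to 2.59, in the TTC pair). Ccnt1 stayed between 2.05 and 2.99 RPM.

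**Figure D2:**
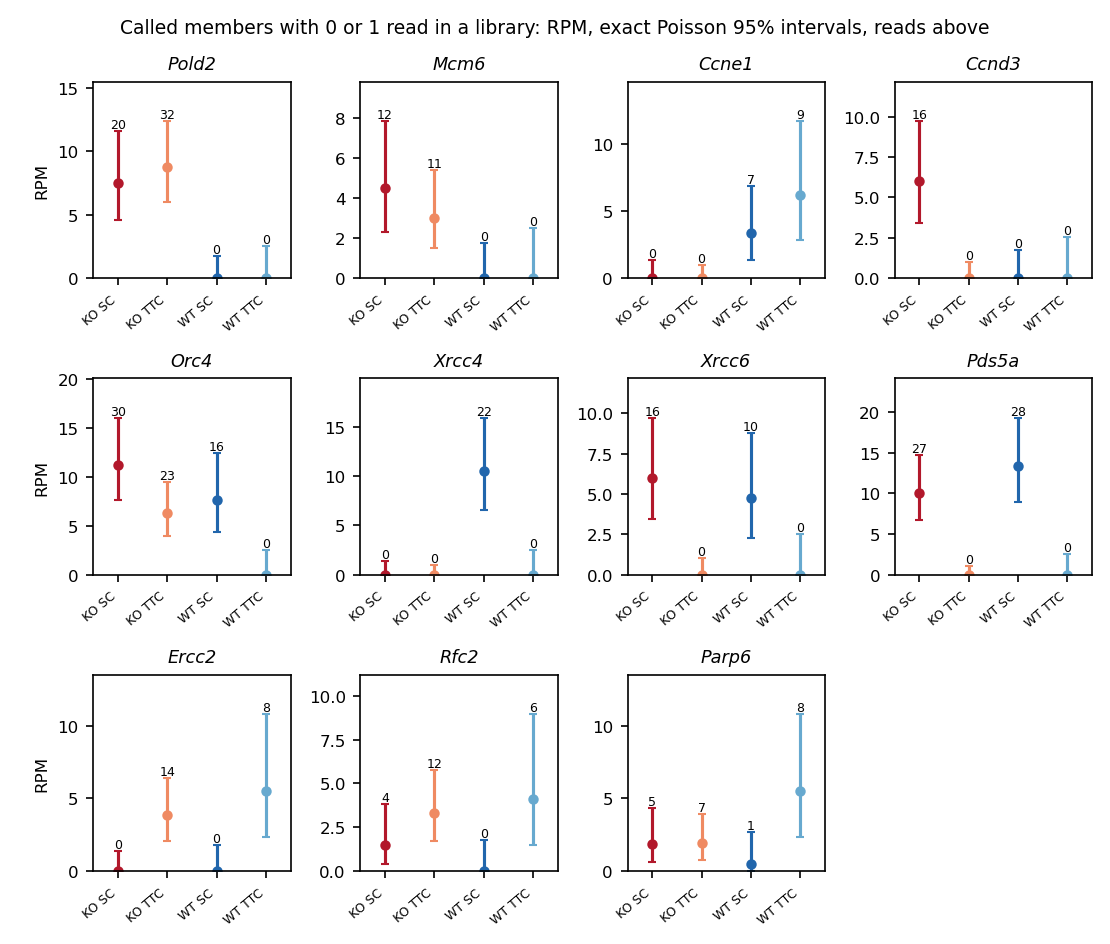
RPM (vertical axes) in each library (horizontal axes) of 11 called genes with 0 or 1 read in a library; points are values, bars exact Poisson 95% intervals, and reads stand above them. Pold2 and Mcm6 have reads in both Ltn1 KO libraries and 0 in both WT libraries, Ccne1 the reverse, Pds5a and Xrcc6 have reads only in the SC libraries and Ercc2 only in the TTC libraries.

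Of the repair genes, Xrcc4 was among those that fell in the SC pair, and none was called in the TTC pair. Xrcc4, the scaffold of DNA ligase IV in end joining, had 0 reads with SC and 0 with TTC in Ltn1 KO, against 22 reads (10.5 RPM) with SC and 0 with TTC in WT. It fell at least 9.35-fold in the SC pair (adjusted p = 2.99e-06, exact binomial test), while the TTC pair had no read to compare. Xrcc6, which encodes Ku70, the DNA-end binding protein of the same pathway, had 16 reads with SC and 0 with TTC in Ltn1 KO, against 10 with SC and 0 with TTC in WT, and the SC pair did not pass (adjusted p = 0.944, exact binomial test). Msh6, a mismatch-repair gene, had 4 reads, all in WT SC.

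Among genes of nucleotide excision repair, Rad23b, a damage-recognition partner of XPC that also carries ubiquitinated proteins to the proteasome, had 5.24 RPM (14 reads) with SC and 5.20 RPM (19 reads) with TTC in Ltn1 KO, against 2.39 RPM (5 reads) with SC and 2.74 RPM (4 reads) with TTC in WT. Both Ltn1 KO values lay above both WT values, and neither pair passed (adjusted p = 0.494 for SC and 0.704 for TTC, exact binomial test). The TFIIH helicase Ercc2 had 14 reads in KO TTC and 8 in WT TTC, with 0 in KO SC and WT SC, and did not pass in the TTC pair (adjusted p = 0.827, exact binomial test). Ercc1, a subunit of the repair endonuclease with XPF, had 5 reads, all in KO TTC, and Ercc3, the other TFIIH helicase, had 3 reads in all. In strand-break repair, Parp1, the poly-ADP-ribose polymerase that senses breaks, had 13.5 RPM (36 reads) with SC and 17.8 RPM (65 reads) with TTC in Ltn1 KO, against 15.3 RPM (32 reads) with SC and 19.9 RPM (29 reads) with TTC in WT. The Ltn1 KO library was slightly lower in each pair, within the intervals of the ratios (0.882, 0.533 to 1.47, in the SC pair and 0.895, 0.570 to 1.44, in the TTC pair). Xrcc1, the scaffold of this pathway, had 3.37 RPM (9 reads) with SC and 3.56 RPM (13 reads) with TTC in Ltn1 KO, against 6.68 RPM (14 reads) with SC and 4.79 RPM (7 reads) with TTC in WT, lower in both Ltn1 KO libraries without passing (adjusted p = 0.446 and 0.912, exact binomial test). Its partner Lig3 had 1 read in all.

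Cohesin genes did not pass in either pair. Rad21, the kleisin subunit of the ring, had 15.7 RPM (42 reads) with SC and 14.5 RPM (53 reads) with TTC in Ltn1 KO, against 16.2 RPM (34 reads) with SC and 10.96 RPM (16 reads) with TTC in WT. The ratio was 0.969 (0.602 to 1.57) for the SC pair and 1.32 (0.745 to 2.48) for the TTC pair. The cohesin regulator Pds5b had 2.99 RPM (8 reads) with SC and 1.64 RPM (6 reads) with TTC in Ltn1 KO, against 3.82 RPM (8 reads) with SC and 4.79 RPM (7 reads) with TTC in WT. The ratio of Pds5b was 0.784 (0.257 to 2.40) for the SC pair and 0.342 (0.0951 to 1.19) for the TTC pair. Its paralog Pds5a had 27 reads (10.1 RPM) in KO SC and 28 reads (13.4 RPM) in WT SC, a ratio of 0.756 between libraries of the same code, and 0 reads in KO TTC and WT TTC.

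**Figure D3:**
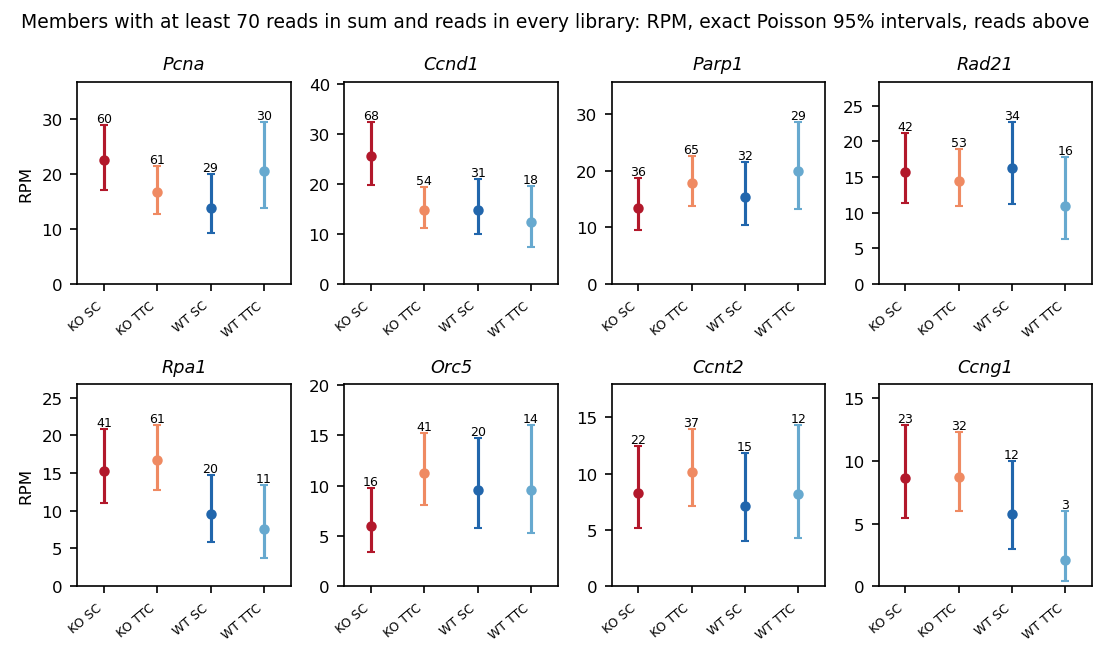
RPM (vertical axes) in each library (horizontal axes) of the 8 genes with at least 70 reads in sum and reads in every library; points are values, bars exact Poisson 95% intervals, and reads stand above them. Rpa1 and Ccng1 are higher in both Ltn1 KO libraries than in both WT libraries, Ccnd1 reaches 25.4 RPM in the library KO SC, and the intervals of most other libraries overlap.

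Across both pairs, 7 of the 31 genes with reads had both Ltn1 KO values above both WT values (22.6%), among them Ccng1, Ccnt2, Mcm6, Pold2, Rad23b and Rpa1, against 13.2% of all 5955 transcripts with reads. The reverse held for Ccne1, Pds5b and Xrcc1 (9.68%), against 14.9% of all. With 2 libraries against 2, an exact permutation test cannot go below p = 0.333, so no test was made. Without KO SC, 12 genes had KO TTC above both WT libraries, against 31.6% of all transcripts, and 4 had it below, against 22.4%. The median difference of log10(RPM + 1) over the 33 genes was 0 for the SC pair and 0.0544 for the TTC pair, and over all transcripts it was 0 in both. Of the 33 genes, KO SC had 16 above WT SC and 12 below, and KO TTC had 17 above WT TTC and 9 below. For the whole table these shares were 38.0% above and 46.3% below with SC, and 43.7% above and 42.1% below with TTC. The difference between the pairs was tested on reads with an exact conditional test, and none of the 20 genes that could be tested passed, against 3.96% of 4642 transcripts. Orc4 had an adjusted p of 0.186 in this exact test, and 4 genes had an unadjusted p under 0.05 in it. For genes with no reads in both libraries of a genotype or of a code, such as Pold2 and Pds5a, it could not be made.

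**Figure D4:**
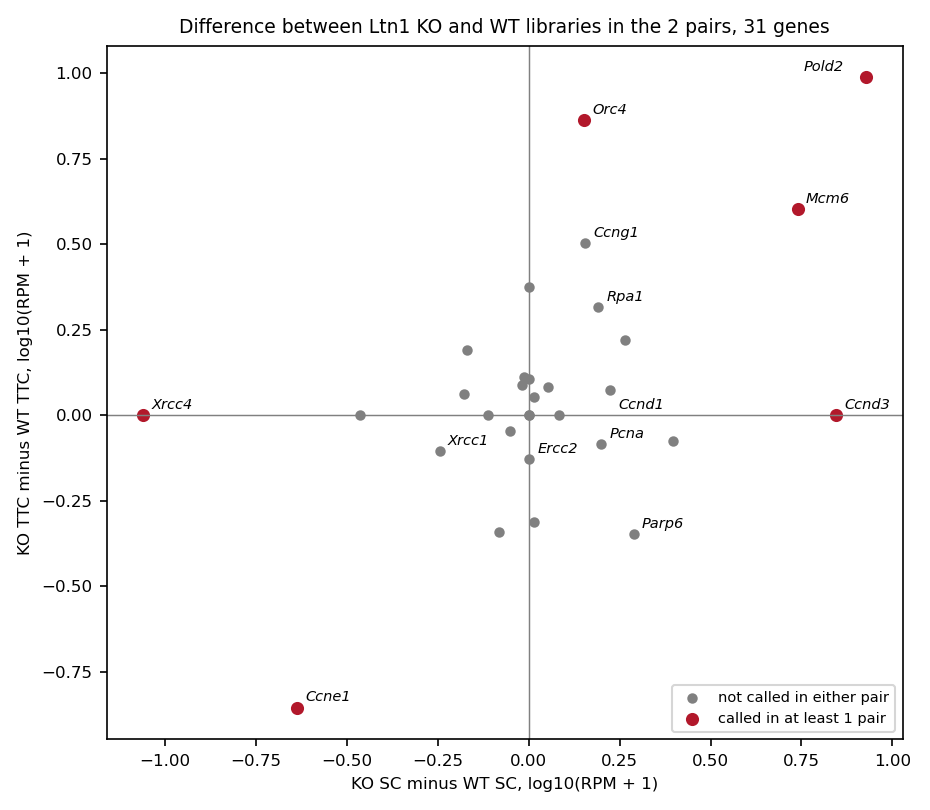
Difference of log10(RPM + 1) between KO SC and WT SC (horizontal axis) and between KO TTC and WT TTC (vertical axis) for 31 of the 33 genes; red points were called in at least 1 pair by the exact binomial test, grey points in neither. Pold2, Mcm6 and Ccne1 lie far from 0 on the same side in both pairs, while Xrcc4 and Ccnd3 differ in the SC pair and had no reads in the TTC pair.

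Libraries of the same genotype that differ in RNAi were compared next. In Ltn1 KO, Pds5a, Ccnd3, Xrcc6 and Ccnd1 rose and genes such as Ercc2 fell in KO SC against KO TTC. In WT, Pds5a, Xrcc4 and Orc4 rose and Ercc2, Rfc2 and Parp6 fell in WT SC against WT TTC. This was 6 of 28 genes with reads in Ltn1 KO (21.4%), against 16.6% of 5623 transcripts (5.71% higher and 10.9% lower), and 6 of 26 in WT (23.1%), against 10.8% of 5345 (3.82% higher and 7.02% lower). The calls compare libraries, as above. Pds5a passed in both genotypes, with 27 reads with SC and 0 with TTC in Ltn1 KO, and 28 with SC and 0 with TTC in WT. It was at least 12.3-fold higher in KO SC than the KO TTC floor (adjusted p of 1.13e-08 from the exact binomial test) and at least 6.50-fold higher in WT SC than the floor of WT TTC (adjusted p = 3.99e-05, same exact test), and did not pass for code in edgeR's additive model (adjusted p = 0.324). Ercc2 was the reverse, with 0 reads with SC and 14 with TTC in Ltn1 KO, and 0 with SC and 8 with TTC in WT, at least 3.41-fold lower in KO SC and at least 3.83-fold lower in WT SC (adjusted p = 0.00645 and 0.0120, exact binomial test). Xrcc6 also had reads only in the SC libraries, and passed in Ltn1 KO (at least 7.29-fold, adjusted p = 3.58e-05, exact binomial test) but not in WT (adjusted p = 0.0609, same exact test), where the SC library had 10 reads.

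The remaining calls between codes each belonged to 1 genotype. Ccnd1 was 1.72-fold higher in KO SC than in KO TTC (1.19 to 2.51, adjusted p = 0.0252, exact binomial test), and the ratio of WT SC to WT TTC was 1.20 (0.651 to 2.28). Parp6 had 1 read in WT SC and 8 in WT TTC (adjusted p = 0.0455, exact binomial test), and 5 with SC and 7 with TTC in Ltn1 KO. Rfc2 had 0 reads with SC and 6 with TTC in WT (adjusted p = 0.0455, same exact test), a call that rests on 6 reads, and 4 with SC and 12 with TTC in Ltn1 KO. After rescaling to the same sum the WT calls of Parp6 and Rfc2 were lost (adjusted p = 0.0586 and 0.0577, exact binomial test), as they were with median-of-ratios factors (adjusted p = 0.0573 and 0.0567, same exact test). Orc4 was at least 3.72-fold higher in WT SC than the floor of WT TTC (adjusted p = 0.00727, exact binomial test), and 1.78-fold (1.00 to 3.22) in KO SC over KO TTC. Over both genotypes, Ccnd1, Ccnt1, Mcm3ap, Orc4, Pds5a, Rad21 and Xrcc6 had both SC values above both TTC values, 7 of 31 (22.6%) against 15.7% of all transcripts. Ercc2, Orc5, Parp1, Parp6 and Rfc2 had both below, 5 of 31 (16.1%) against 22.1% of all. Without KO SC these counts were 11 above (31.4% of all transcripts) and 9 below (31.2% of all).

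Reads that were all in some libraries and at 0 in others made up most of these calls. In the 4 comparisons 13 of the 33 genes were called at least once, in 21 calls, and 19 of the 21 had 0 reads in 1 of the libraries compared. The exceptions were Ccnd1 between the Ltn1 KO libraries and Parp6 between the WT libraries. The same counts over all transcripts are not given, so neither count can be called particular to these genes. Among the 25 genes with at least 20 reads in sum, 10 had 0 reads in a library and at least 10 in another (among them Ercc2, Mcm6, Orc4, Pds5a, Pold2, Rfc2, Xrcc4 and Xrcc6), or 40%, against 11.6% of 3703 transcripts with that many reads. Among transcripts with 20 to 99 reads in sum it was 10 of 20 genes, or 50%, against 18% of 2366. These limits were chosen after the values had been seen. The genes with 100 reads or more, Pcna, Ccnd1, Parp1, Rad21 and Rpa1, had reads in every library, and of these only Ccnd1 was called, between the Ltn1 KO libraries.

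Other genes of the same pathways came from 4 lists, of which 39 genes were in the table and 38 had reads. In the SC pair 18 were higher and 16 lower in KO SC, and 1 was called, Top2a, against 7.38% of all transcripts. In the TTC pair 15 were higher and 20 lower in KO TTC, and 2 were called, Top2a and Rnaseh2b, against 7.54% of all transcripts. Top2a, the topoisomerase of dividing cells, fell in both pairs, with 0 reads with SC and 0 with TTC in Ltn1 KO, against 8 reads with SC and 6 with TTC in WT (adjusted p = 0.0249 for the SC pair and 0.0129 for the TTC pair, exact binomial test). This is the same order as that of Ccne1. Rnaseh2b, a subunit of RNase H2, had 13 reads in WT TTC and 0 in the other libraries. It was also called lower in WT SC than in WT TTC (adjusted p = 0.000353, exact binomial test). Of the 5 other cohesin and condensin genes in the table, none was called in any comparison, where 7.38% to 16.6% of all transcripts were. Between codes, 1 list gene was called higher and 2 lower in KO SC than in KO TTC, against 16.6% of all transcripts. In WT, 3 were called lower in WT SC than in WT TTC, against 10.8% of all. Cdk4, the kinase partner of the D-type cyclins, had 13.5 RPM (36 reads) with SC and 23.0 RPM (84 reads) with TTC in Ltn1 KO, and 10.5 RPM (22 reads) with SC and 26.0 RPM (38 reads) with TTC in WT. It fell in SC against TTC in both genotypes (adjusted p = 0.0448 in Ltn1 KO and 0.0100 in WT, exact binomial test). Ccnd1 was higher in both SC libraries, but passed in Ltn1 KO alone. Hexim1, an inhibitor of the kinase that T-type cyclins activate, rose to 12.7 RPM in KO SC, and KO TTC had 5.47 RPM (adjusted p = 0.0198, exact binomial test). Ddb1, the damage-binding adaptor of a ubiquitin ligase, had 23.6 RPM with SC and 38.3 RPM with TTC in Ltn1 KO (adjusted p = 0.0126, same exact test). Ccnh, the cyclin of Cdk7 in TFIIH, had 5.72 RPM with SC and 17.8 RPM with TTC in WT (adjusted p = 0.0120, same exact test).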

How the data were processed

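Ribosome footprints at initiation sites were deposited as RPM for 6352 transcripts, which the authors scaled to all reads of a library. The submitters' processing notes name Bowtie, SAMtools, bedtools and GRCm38/mm10; versions, annotation and the window counted are not given in the sources used here. Low values moved in even steps, and the smallest value above 0 of a library was taken as 1 read to infer its total. On that basis 100% of values came out as whole reads (tolerance 1e-06). Listed reads made up 6.06% to 6.85% of the inferred totals. All read counts, exact tests and intervals rest on these totals. Symbols for 6351 transcripts came from the text of Dataset S1, of which 38 identifiers with a surplus digit were mended. Its column of the authors' differences entered no test and was only read for which pair it follows. Files held no other per-sample columns.

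Ratios have exact (Clopper-Pearson) 95% intervals, and levels exact Poisson intervals. Reads of a transcript were set between 2 libraries by an exact binomial test, two-sided and conditional on the library totals, with Benjamini-Hochberg adjustment over transcripts that had reads. On simulated data the SC pair (5206 transcripts) gave back 31% of changes of 2-fold and 83% of those of 4-fold, and the TTC pair (5323) 28% and 80%. The simulated counts held counting error only, while the real libraries varied beyond it, so these shares do not describe the test on the real libraries. As an alternative, edgeR's quasi-likelihood test was run on the recovered reads, with genotype and code as additive terms and 1 residual degree of freedom, on transcripts with at least 10 reads in sum and reads in at least 2 libraries. Nothing says that libraries came from separate cultures, and p-values measure reads only. Members and lists were chosen with earlier results of these data known. Values are given in full for called members, for those with at least 20 reads whose groups did not overlap, and for those with at least 40 reads. Some genes are not reported here; counts over members and sums over marker lists include them. Alternatives were a minimum mean of 5 RPM, median-of-ratios factors, rescaling to the same sum, exchange of the RNAi labels, a pseudocount of 0.1 in place of 1 RPM, and Mcm3ap, Ccnt1, Ccnt2 and Parp6 left out. The test between pairs and the leaving out of libraries were added after the data had been seen. Python 3.11.15, numpy 2.4.6, pandas 2.3.3, scipy 1.17.1, matplotlib 3.10.9, R 4.3.3 and edgeR 4.0.16 were used.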

Additional observations from a re-analysis of the deposited data

How the results depend on the processing

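With a mean of at least 5 RPM, 10 members were left, and members called numbered 0 in KO SC against WT SC, 1 in KO TTC against WT TTC, 2 in KO SC against KO TTC and 2 in WT SC against WT TTC. At that filter 3 members had both Ltn1 KO libraries above both WT libraries and 0 below, and 4 had both SC libraries above both TTC libraries and 2 below. Shares of all transcripts at that filter are not given, so these counts, and those of calls, stand without a background. The median difference over members was then 0.102 for KO SC minus WT SC (0 without the filter; -0.0317 over all transcripts at the filter), 0.0774 for KO TTC minus WT TTC (0.0544; -0.0142), 0.0130 for KO SC minus KO TTC (0; -0.0512) and 0.0828 for WT SC minus WT TTC (0; -0.0288). For KO SC minus KO TTC it was 0.00662 after rescaling to the same sum and 0.0151 with median-of-ratios factors. Either rescaling left 3 members with both SC libraries below both TTC libraries. Of 21 calls, 18 were kept under each rescaling. Those lost were Ccne1 in the SC pair (adjusted p = 0.0547 and 0.0580, exact binomial test), Parp6 between the WT libraries (0.0586 and 0.0573) and Rfc2 there (0.0577 and 0.0567), with rescaling to the same sum first. With median-of-ratios factors Ccnd1 was gained in the SC pair (0.0466), which then had 4 members higher and 2 lower in place of 3 and 3. Median-of-ratios factors moved log2 ratios by up to 0.17.

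edgeR's additive model called 0 members and 0 of 4467 transcripts for either term with library totals or TMM, and the smallest adjusted p in members was 0.902 for genotype and 0.324 for code with library totals, and 0.851 and 0.244 with TMM. With library totals and an unadjusted p under 0.05, 88 transcripts were higher and 152 lower in Ltn1 KO, 3 members higher (Mcm6, Pold2 and Rpa1) and 1 lower (Ccne1), and 165 were higher and 349 lower for SC over TTC. With TMM these counts over all transcripts were 149 and 105 for Ltn1 KO and 242 and 258 for SC. Leaving out each library in turn gave 10 to 14 of 31 members with reads with the Ltn1 KO libraries above the WT libraries, and 4 to 8 below. Over all 5955 transcripts with reads it was 26.8% to 31.6% above and 22.4% to 36.5% below. For code it gave 8 to 11 members with the SC libraries above the TTC libraries and 7 to 14 below. Over all transcripts these shares were 24% to 31.4% above and 31.2% to 38.8% below. Fewer libraries make such an order easier by construction. edgeR's additive model takes code as a block for genotype, and genotype for code; the labels give no replicate numbers. Members with at least 20 reads in a pair varied beyond counting error, their mean Pearson statistic being 3.13 to 4.81, against 3.17 to 5.12 over all transcripts. Exchanging the RNAi labels turns every difference between codes round and leaves the genotype pairs as they are.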
